A study of Rattus norvegicus with 8 samples.

Results

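The genes of insulin and insulin-like growth factor (IGF) signalling were examined in neonatal rat ventricular myocytes, the beating muscle cells of the heart taken into primary culture, after transfection with a miR-222 precursor. The list held 10 genes: the ligands Igf1 and Igf2, the receptors Igf1r, Insr and Igf2r, the receptor substrates Irs1 and Irs2, and the binding proteins Igfbp3, Igfbp4 and Igfbp5. A gene was represented by the brightest probe set that the array annotation paired with it alone. This gave 9 of the 10, among 14506 genes in all, and Irs2, which was not paired with a probe set, was not analysed here. Cells received either the miR-222 precursor (4 arrays) or a control precursor of scrambled sequence (4 arrays), each at 0.4 µM, and RNA was taken 48 h later. No genetic change or further treatment is named for either group, and the scrambled RNA has a sequence of its own, so a difference holds the effects of both RNAs. The labels do not state whether each array is a culture of its own, so the p-values cover only the spread among these arrays, which could be technical.

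IGF-1 and IGF-2 are secreted growth factors that act mainly through the IGF-1 receptor, a tyrosine kinase closely related to the insulin receptor. Both receptors phosphorylate insulin receptor substrates, which recruit PI3-kinase and thereby switch on Akt, a kinase that promotes protein synthesis and keeps FoxO transcription factors out of the nucleus. In the heart this route is known for its part in growth of the muscle cells, including the growth that follows exercise. The IGF-2 receptor has no kinase domain and carries IGF-2 to lysosomes, and IGF binding proteins hold the ligands in the fluid and matrix around cells.

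The mature strand named after the transfected precursor, rno-miR-222-3p, and its relative rno-miR-221-3p are shown because the seed, bases 2 to 8 in capitals, is the part of a microRNA that pairs with its targets. Of 724 mature rat microRNAs in the RefSeq-derived table these 2 had this seed. They lie close together on chromosome X (GRCr8, plus strand), at chrX:6022682-6022702 for miR-222-3p and chrX:6023246-6023268 for miR-221-3p.
rno-miR-222-3p: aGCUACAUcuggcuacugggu
rno-miR-221-3p: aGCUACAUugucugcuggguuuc

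Cells given miR-222 had a 1.72-fold higher level of Igfbp5 and a 1.35-fold lower level of Irs1, and smaller decreases of Igf2 (1.17-fold) and Igf1r (1.15-fold). These 4 of the 9 measured genes, 1 higher and 3 lower, passed an adjusted p of 0.05 in limma, a linear model fitted to all probe sets of the table with the method of Benjamini and Hochberg. Over all genes 24.7% passed, 11.7% higher and 13.0% lower with miR-222. Insr, Igf1, Igf2r, Igfbp3 and Igfbp4 did not pass. The median log2 fold change over the 9 genes was -0.12, against 0.01 over all genes. Each change is a log2 difference, the miR-222 mean less the control mean, given with its standard error (SE) from limma and n = 4 arrays per group, and levels are log2 of the deposited intensity. Levels of different probe sets are not comparable.

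**Figure D1:**
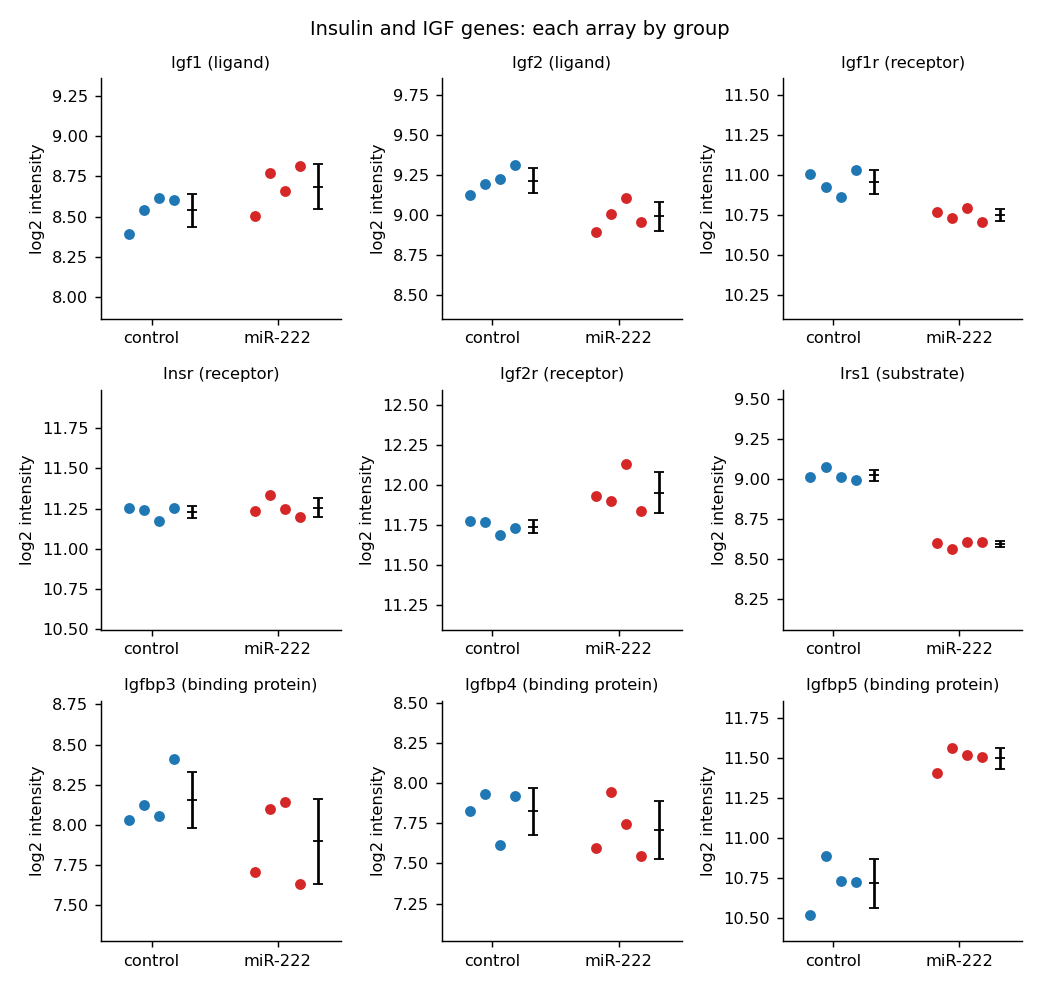
Log2 intensity of the representative probe set of each of the 9 measured genes in each array (points, y axis, each panel spanning 1.5 log2 units), for 4 control and 4 miR-222 arrays (x axis), with the mean and SD as a bar. All 4 miR-222 arrays lie above the controls for Igfbp5 and Igf2r and below them for Irs1, Igf1r and Igf2, whereas the groups overlap for Igf1, Insr, Igfbp3 and Igfbp4.

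Igf1 and Igf2, the ligands, moved unequally. Igf1 (probe set 10894695) stood at 8.39, 8.54, 8.62 and 8.60 log2 units in control replicates 1 to 4 and at 8.50, 8.77, 8.66 and 8.82 in miR-222 replicates 1 to 4. The groups overlapped, since miR-222 replicate 1 lay below 3 of the controls. Igf1 measured 0.15 higher with miR-222 (SE 0.08, 95% confidence interval -0.04 to 0.34) and did not pass (limma adjusted p = 0.270). Igf2 (probe set 10726999) stood at 9.13, 9.19, 9.22 and 9.31 in the controls and at 8.89, 9.01, 9.11 and 8.95 with miR-222. The groups did not overlap, but miR-222 replicate 3 and control replicate 1 lay next to each other, at 9.11 and 9.13. Groups that do not overlap were found in 33.3% of all genes. Igf2 fell by 0.22 (SE 0.06, limma adjusted p = 0.0394), a call that was kept without control replicate 1 or miR-222 replicate 3 and was lost without any of the other arrays (control replicates 2, 3 and 4, miR-222 replicates 1, 2 and 4), with adjusted p from 0.0660 to 0.0951.

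Within an array the log2 difference Igf1 minus Igf2 does not depend on a factor by which that array is scaled. It was -0.73, -0.65, -0.60 and -0.71 in control replicates 1 to 4 and -0.39, -0.24, -0.45 and -0.14 in miR-222 replicates 1 to 4. The difference was therefore higher in every miR-222 array than in any control, by 0.37 on average (-0.68 ± 0.06 against -0.30 ± 0.14, mean ± SD, n = 4 each). An exact two-sided permutation test over the 8 arrays gave p = 0.0286, the smallest this design allows, and p = 0.0286 after adjustment over the 2 pairs tested. Irs1 with Irs2 was the other pair listed and could not be tested. The pairs were chosen with earlier results of these data known.

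The 3 receptors did not move together. Igf1r (probe set 10707889), the receptor of IGF-1, stood at 11.00, 10.93, 10.86 and 11.03 in control replicates 1 to 4 and at 10.77, 10.73, 10.79 and 10.71 in miR-222 replicates 1 to 4. Every miR-222 array lay below every control, and the miR-222 arrays were closer to each other (SD 0.04) than the controls (SD 0.08). Igf1r fell by 0.21 (SE 0.05, 95% confidence interval -0.32 to -0.09, limma adjusted p = 0.0229). The call was lost without control replicate 1 (adjusted p = 0.0704), control replicate 4 (adjusted p = 0.0588) or miR-222 replicate 4 (adjusted p = 0.0622).

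Insr, the insulin receptor, was covered by 2 probe sets. The brighter, 10756251, stood at 11.26, 11.24, 11.17 and 11.25 in the controls and at 11.24, 11.34, 11.25 and 11.20 with miR-222. The values were intermingled, with a difference of 0.02 (SE 0.04, limma adjusted p = 0.778) and a 95% confidence interval of -0.08 to 0.13. The other probe set, 10756229, went from 10.30 to 10.48 over the miR-222 arrays and from 10.32 to 10.48 over the controls, with a difference of -0.04 (95% confidence interval -0.17 to 0.08, limma adjusted p = 0.657). The intervals leave room for a change of up to about these bounds in either direction.

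Igf1r changed relative to Insr within the arrays. The log2 difference Igf1r minus Insr was -0.25, -0.31, -0.31 and -0.22 in control replicates 1 to 4 and -0.46, -0.61, -0.45 and -0.49 in miR-222 replicates 1 to 4. It was lower in all 4 miR-222 arrays, by 0.23 on average (exact two-sided permutation test, p = 0.0286, also 0.0286 after adjustment over the 2 pairs). Such a ratio shows that the 2 receptor transcripts changed unequally and not which of them moved.

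**Figure D2:**
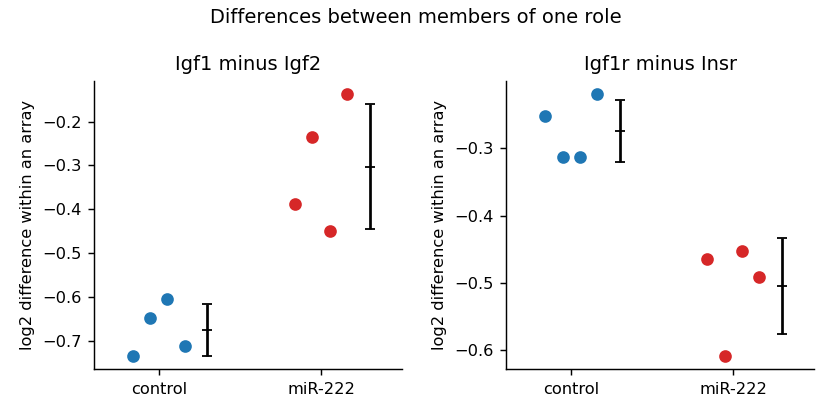
Log2 difference between 2 genes within each array (points, y axis) for Igf1 minus Igf2 and for Igf1r minus Insr, in 4 control and 4 miR-222 arrays (x axis), with mean and SD as bars. Igf1 minus Igf2 is higher in every miR-222 array (-0.45 to -0.14) than in any control (-0.73 to -0.60), and Igf1r minus Insr is lower (-0.61 to -0.45 against -0.31 to -0.22).

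Igf2r (probe set 10702996), the receptor that removes IGF-2, stood at 11.77, 11.77, 11.69 and 11.74 in control replicates 1 to 4 and at 11.93, 11.90, 12.13 and 11.84 in miR-222 replicates 1 to 4. The miR-222 arrays were all above the controls, with miR-222 replicate 3 the highest. The difference was 0.21 (SE 0.07, 95% confidence interval 0.06 to 0.36) and did not pass (limma adjusted p = 0.0650). It did pass without miR-222 replicate 4 (adjusted p = 0.0493), after quantile normalization (adjusted p = 0.0472), when dim probe sets were left out (adjusted p = 0.0300) and with an intensity trend and robust prior in the variance model (adjusted p = 0.0187).

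Irs1 (probe set 10929390), the docking protein through which both receptor kinases reach PI3-kinase, had the smallest p of the 9 genes. Its level was 9.01, 9.07, 9.01 and 8.99 in control replicates 1 to 4 and 8.60, 8.56, 8.60 and 8.60 in miR-222 replicates 1 to 4. The gap between the groups was several times the spread within either of them (SD 0.03 for control and 0.02 for miR-222). Irs1 fell by 0.43 (SE 0.04, 95% confidence interval -0.52 to -0.34, limma adjusted p = 2.37e-04). Its intensity fell by 25.8%, and 7.74% of all genes had a larger change in either direction. The call was kept without any single array (adjusted p up to 0.0018).

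Igfbp5 (probe set 10928837), a binding protein that is deposited in the matrix and can hold or present IGFs, had the largest change of the 9 genes. Its level was 10.52, 10.89, 10.73 and 10.73 in control replicates 1 to 4 and 11.41, 11.56, 11.52 and 11.51 in miR-222 replicates 1 to 4. Control replicate 1 was the lowest of all, and even control replicate 2, the highest control, lay far below the miR-222 arrays. Igfbp5 rose by 0.78 (SE 0.08, 95% confidence interval 0.60 to 0.96, limma adjusted p = 4.44e-04), an increase of 72.0%, and 1.58% of all genes had a larger change in either direction. The difference was 0.72 to 0.84 when any single array was left out (adjusted p up to 0.0024).

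Igfbp3 (probe set 10778390), the main carrier of IGFs in blood, stood at 8.03, 8.12, 8.05 and 8.41 in control replicates 1 to 4 and at 7.71, 8.10, 8.14 and 7.63 in miR-222 replicates 1 to 4. The miR-222 arrays fell apart into a low pair, replicates 1 and 4, and replicates 2 and 3, which lay among the controls. The difference was -0.26 with a wide error (SE 0.14, 95% confidence interval -0.58 to 0.07, limma adjusted p = 0.264). Igfbp4 (probe set 10738140), whose cleavage by the protease PAPP-A releases IGFs, stood at 7.83, 7.94, 7.62 and 7.92 in the controls and at 7.59, 7.95, 7.75 and 7.54 with miR-222. Here too miR-222 replicates 1 and 4 were the lowest of their group, and the groups overlapped. Igfbp4 differed by -0.12 (SE 0.11, 95% confidence interval -0.36 to 0.13, limma adjusted p = 0.519). Leaving out single arrays gave -0.34 to -0.17 for Igfbp3, with the smallest size without miR-222 replicate 4. It gave -0.20 (without miR-222 replicate 2) to -0.06 (without miR-222 replicate 4) for Igfbp4, and neither gene passed in any of these fits. Igfbp3 and Igfbp4 gave levels close to the array medians of 7.66 to 7.77 log2 units, where background can compress a difference, and no detection calls were used here.

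**Figure D3:**
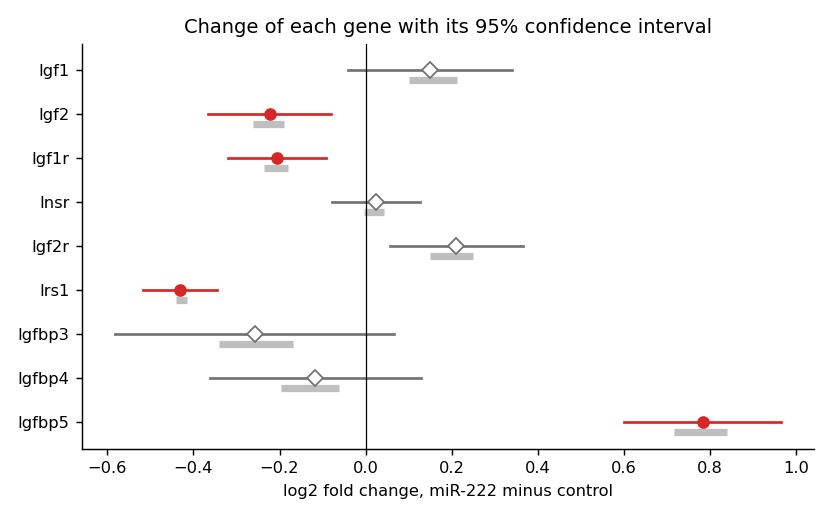
Log2 fold change of each of the 9 genes (x axis, miR-222 minus control) with its 95% confidence interval from limma, red filled circles for genes past an adjusted p of 0.05 and open diamonds for the others. Grey bars give the range of the fold change when each array was left out in turn, and Igfbp5 (0.72 to 0.84) and Irs1 (-0.44 to -0.41) stay farthest from 0.

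Deviations from the group means tied some of the genes to each other across the 8 arrays. Insr and Igfbp4 deviated together (r = 0.93), as did Igf2 and Igfbp3 (r = 0.85) and Igfbp3 and Igfbp4 (r = 0.74), whereas Igf1 and Igf1r tended to deviate in opposite directions (r = -0.50). These values are descriptions over 8 arrays that share one normalization, and they were the extremes of 36 pairs. The 3 genes most like Igfbp5 by Pearson correlation of log2 levels over all 8 arrays, group difference included, were Bckdha, a subunit of the enzyme that breaks down branched-chain keto acids, at r = 0.99, the kinase gene Map4k4 at 0.99 and the monoamine oxidase gene Maoa at 0.99. Their own changes were 0.22 for Bckdha, 0.32 for Map4k4 and 0.51 for Maoa.

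The start-site regions of Irs1 and Igfbp5, the genes with the largest decrease and increase, and of Insr are shown with the motifs that were searched. Each is the 250 bases before the RefSeq gene start (GRCr8), 5′ to 3′ on the gene's strand, which is the minus strand for all 3: chr9:91053960-91054209 for Irs1, chr9:81914188-81914437 for Igfbp5 and chr12:6128804-6129053 for Insr. Capitals mark matches, on either strand, to the TATA box TATAAA, the FoxO motif GTAAACA, the GC box GGGCGG or the E-box CACGTG, which overlap in no position here.
Irs1: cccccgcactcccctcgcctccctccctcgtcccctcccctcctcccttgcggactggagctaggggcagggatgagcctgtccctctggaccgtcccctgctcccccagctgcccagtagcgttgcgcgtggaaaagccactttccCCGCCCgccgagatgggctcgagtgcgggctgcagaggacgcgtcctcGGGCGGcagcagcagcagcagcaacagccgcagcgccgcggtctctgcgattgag
Igfbp5: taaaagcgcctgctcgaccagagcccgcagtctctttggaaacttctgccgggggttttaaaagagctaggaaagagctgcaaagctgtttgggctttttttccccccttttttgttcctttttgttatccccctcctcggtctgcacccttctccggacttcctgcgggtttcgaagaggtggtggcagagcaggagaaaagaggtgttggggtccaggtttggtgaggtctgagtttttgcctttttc
Insr: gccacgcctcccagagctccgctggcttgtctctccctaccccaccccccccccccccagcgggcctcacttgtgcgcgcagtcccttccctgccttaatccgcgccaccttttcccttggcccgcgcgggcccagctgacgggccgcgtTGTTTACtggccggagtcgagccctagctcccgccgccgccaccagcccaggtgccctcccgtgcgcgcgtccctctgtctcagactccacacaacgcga

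Irs1 held 2 GC boxes, in a window of 70.8% G and C with 22 CpG, and Igfbp5 held none of the 4 motifs, at 51.6% G and C with 8 CpG. Over 33469 RefSeq windows of this length the median was 51.2% G and C and 5 CpG, and 30.5% held a GC box. Insr held 1 FoxO motif, which 3.21% of the windows have. Windows were found for all 9 measured genes, and among them Igf1r was the richest in CpG, with 45, and Igf1 the poorest, with 3. A TATA box was found in Igfbp4 (12.9% of all windows) and E-boxes in Igf1r and Igf2r (5.59% of all windows). GC boxes were also found in Igf2r (2), in Igf1r (1) and in a window of Igf2 (1). In the RefSeq order of protein-coding genes Igfbp5 is next to Igfbp2 and Igfbp3 next to Igfbp1, whereas Igfbp4 lies between Top2a and Tns4. Igfbp2 measured 0.17 (SE 0.12, limma adjusted p = 0.362) and Igfbp1 measured -0.03 (SE 0.08, limma adjusted p = 0.860), and neither passed. Their control means, 7.07 and 7.22 log2 units, lay below the array medians of 7.66 to 7.77.

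The rest of the pathway was read from 9 lists of 102 genes, of which 89 were measured. In them 16 genes rose, 8 fell and 65 did not pass, so that 27.0% were called against 24.7% of all genes, and the median change was 0.04. When the arrays were scaled to equal medians, which shifted the median change by -0.03, the split was 10 higher and 10 lower. That scaling also lowered the share of higher genes among all called genes, from 47.3% to 39%. The 8 lower genes became 5 when control replicate 1, 3 or 4 or miR-222 replicate 4 was omitted.

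None of the 7 measured genes of further ligands and the acid-labile subunit passed in limma (0 at an unadjusted p under 0.05). None of 7 further binding proteins passed (1 lower at an unadjusted p under 0.05). Over all 14506 genes 24.7% passed, and 2721 were higher and 2691 lower at an unadjusted p under 0.05. Ins2, an insulin gene, had the smallest p of the ligands, with a difference of 0.22 (SE 0.10, limma adjusted p = 0.170), followed by Rln3 at 0.14, Insl3 at 0.11 and Rln1 at 0.10. Single arrays moved these differences, to 0.13 for Ins2 without control replicate 3, to 0.03 for Insl3 without miR-222 replicate 2 and 0.22 without miR-222 replicate 1, and to 0.02 for Rln1 without control replicate 2 and 0.18 without control replicate 4. The relaxin gene Rln3 passed without control replicate 2 (difference 0.25, limma adjusted p = 0.0181). Control means were 7.82 for Ins2, 7.95 for Rln3, 7.33 for Insl3 and 7.50 log2 units for Rln1. These levels are near or below the array medians of 7.66 to 7.77, and whether these transcripts were detected was not tested. Among binding proteins Igfbp6 measured -0.19 (limma adjusted p = 0.150), Igfbpl1 0.14 and Igfbp7, which binds IGFs weakly, -0.09. In the controls Igfbp6 (7.50) and Igfbpl1 (6.92) were also below the array medians, unlike Igfbp7 (12.92). Of 8 genes for proteases that cut binding proteins or ligands and for their inhibitors 1 rose and 1 fell. That was 25% called, against 24.7% of all genes. Stc1, encoding stanniocalcin-1, an inhibitor of PAPP-A, fell by 0.79 (SE 0.16, limma adjusted p = 0.0097), from 11.82 to 12.02 log2 units in the controls to 10.78 to 11.56 with miR-222. Its relative Stc2 measured 0.63 in the other direction, with miR-222 arrays at 8.75, 9.12, 9.87 and 8.58 and a limma adjusted p of 0.132, and the difference was 0.37 without miR-222 replicate 3. Ide, the insulin-degrading enzyme, rose by 0.17 (limma adjusted p = 0.0151), a call lost when the arrays were scaled to equal medians (limma adjusted p = 0.0774), and the lysosomal protease gene Ctsd measured 0.04. Igf2bp1, an mRNA-binding protein named for Igf2, was the measured member of its list, at -0.15 (SE 0.05, limma adjusted p = 0.0855), and passed with array weights (limma adjusted p = 0.0283) or without dim probe sets (limma adjusted p = 0.0379).

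Adaptors and docking proteins went both ways, with 3 of 16 higher and 2 lower. This was 31.2% called, against 24.7% of all genes (11.7% higher and 13.0% lower). Shc1, which links the receptors to Ras, fell by 0.54 (SE 0.05, limma adjusted p = 4.21e-04), from 9.89 to 10.10 log2 units in the controls to 9.42 to 9.52 with miR-222. Its partners Grb2 and Sos1, the adaptor and the Ras activator it binds, rose by 0.24 (SE 0.04) and 0.32 (SE 0.06). Dok1 rose by 0.35, with miR-222 replicate 3 the highest array at 8.54. It passed without miR-222 replicate 2 or 3 and failed without any other array (limma adjusted p up to 0.0695), and under quantile normalization (limma adjusted p = 0.0569) or equal medians (limma adjusted p = 0.0615). The other lower member, named after its values were seen, was the docking protein gene Gab1 at -0.14 (limma adjusted p = 0.0422). The 3 higher adaptors were 2 with equal medians and 5 with the trend and robust prior. They were 3 without miR-222 replicate 2, 4 without miR-222 replicate 3 and 2 when any other array was omitted. The count of 2 lower adaptors was 3 with equal medians, array weights, a pseudocount of 16, the trend and robust prior or without dim probe sets. It was 3 without miR-222 replicate 3 and 1 when any other array was omitted.

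Among 10 phosphatases and suppressors of the receptors 2 fell and 1 rose, so that 30% were called against 24.7% of all genes. Enpp1, a membrane enzyme that inhibits the insulin receptor, fell by 0.49 (SE 0.05, limma adjusted p = 5.20e-04), from 10.52 to 10.70 log2 units in the controls to 10.08 to 10.18 with miR-222. Trib3, a pseudokinase that can bind Akt, rose by 0.78 (SE 0.16, limma adjusted p = 0.0105), and its miR-222 arrays spread from 8.88 to 9.61, with replicate 3 the highest. The phosphatase gene Ptprf fell by 0.19 but failed when control replicate 1, 3 or 4 or miR-222 replicate 4 was omitted (limma adjusted p up to 0.0643), and the suppressor gene Socs1 measured 0.11 and did not pass.

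Of 15 PI3-kinase and Akt genes 6 were higher and 1 was lower, with a list median of 0.11. This was 46.7% called, against 24.7% of all genes (11.7% higher and 13.0% lower). But the split was 3 higher and 2 lower when arrays were scaled to equal medians. It was 7 higher and 3 lower without dim probe sets or with the trend and robust prior, and 6 higher and 2 lower with array weights. The 6 higher genes were 6 without miR-222 replicate 2, 5 without miR-222 replicate 4, and 4 when any other array was omitted. Pik3r2, the regulatory subunit p85 beta, rose by 0.79 (SE 0.07, limma adjusted p = 2.48e-04), from 8.33 to 8.49 log2 units in the controls to 9.06 to 9.31 with miR-222. Pdpk1, the kinase that activates Akt, rose by 0.39 (SE 0.05) and the catalytic subunit gene Pik3cb by 0.25 (SE 0.04). Phlpp2, a phosphatase that switches Akt off, fell by 0.51 (SE 0.06, limma adjusted p = 0.0010). The lower count was 2 without miR-222 replicate 2 or 3. The remaining higher members, named after their values were seen, were Phlpp1 at 0.20, Akt2 at 0.19 and Akt1 at 0.15.

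Of 14 genes of mTOR and translation control 2 fell and 1 rose, so that 21.4% were called against 24.7% of all genes. The count of higher genes was 0 with equal medians or without any single array, 2 after quantile normalization and 4 without dim probe sets or with the trend and robust prior. The count of lower genes was 2 without miR-222 replicate 2 and 1 without any other array. Eif4ebp2, a repressor of cap-dependent translation, fell by 0.42 (SE 0.05, limma adjusted p = 7.29e-04). Rptor, the scaffold of mTOR complex 1, fell by 0.23 and Tsc2, an inhibitor of the complex, rose by 0.13. Rptor passed without miR-222 replicate 2 and failed without each of the other 7 arrays (limma adjusted p up to 0.0937), and Tsc2 failed whichever array was omitted (limma adjusted p up to 0.112) and with equal medians (limma adjusted p = 0.178). Rps6kb1, the S6 kinase, measured 0.11 (limma adjusted p = 0.0907). It passed after quantile normalization (limma adjusted p = 0.0450), without dim probe sets (limma adjusted p = 0.0331) and with the trend and robust prior (limma adjusted p = 0.0330).

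Of 11 FoxO factors and genes that insulin represses 4 rose and none fell, with a list median of 0.21. Called genes made up 36.4% of the list, against 24.7% of all genes (11.7% higher and 13.0% lower). Foxo1, the FoxO factor best known as a target of insulin signalling, rose by 0.95 (SE 0.10, limma adjusted p = 5.78e-04), from 9.04 to 9.22 log2 units in the controls to 9.92, 10.03, 10.37 and 9.94 in miR-222 replicates 1 to 4. The stress gene Sesn1 rose by 0.54 (SE 0.06, limma adjusted p = 8.88e-04), and the muscle ubiquitin ligase genes Fbxo32 and Trim63 by 0.46 (SE 0.06) and 0.30 (SE 0.04). At an unadjusted p under 0.05 in limma 6 of the 11 were higher and 1 was lower, against 2721 and 2691 of 14506 genes. The lower member was the stress gene Sesn3 at -0.20, named after its values were seen. Without dim probe sets or with the trend and robust prior 1 member passed as lower.

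**Figure D4:**
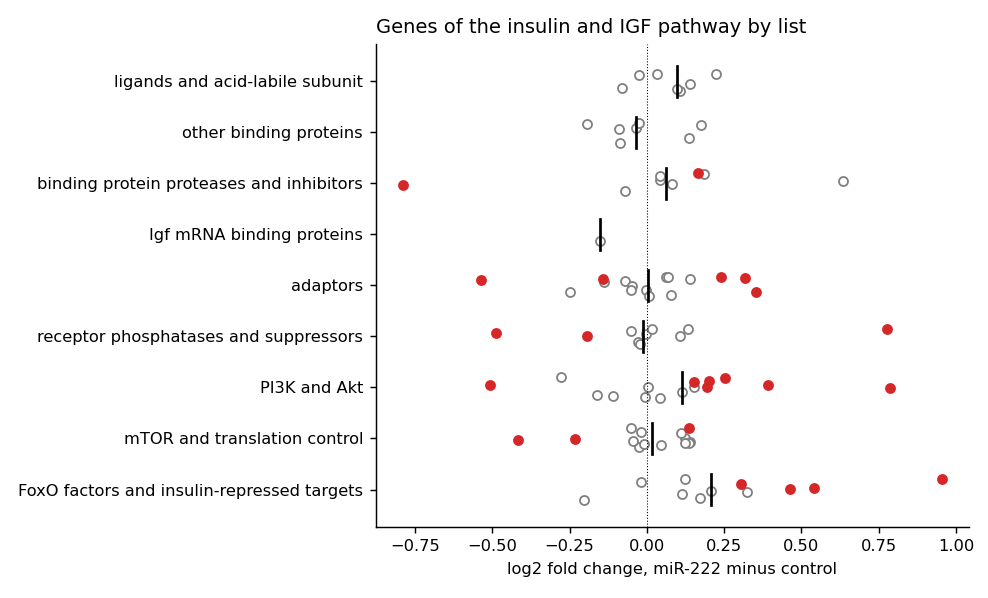
Log2 fold change (x axis, miR-222 minus control) of the 89 measured genes of the 9 pathway lists (rows), with filled red points for genes past an adjusted p of 0.05 in limma, open points for the others and a black line at each list's median. The medians run from -0.15, for a list with 1 measured gene, to 0.21 for FoxO factors and insulin-repressed targets.

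Markers of cell types were read in the same arrays, against 24.7% of all genes called and 13.0% called lower. All 12 listed cardiomyocyte markers were measured, among them Tnnt2 at 13.36 log2 units in the controls. Their summed intensity was 105014 to 107092 in the controls and 97554 to 99958 with miR-222. Of the 12, 2 were lower and 1 higher, so that 25.0% were called. The largest change was -0.61 for Myh7, named after its values were seen, against a list median of -0.06. The lower count was 5 without dim probe sets, 7 with the trend and robust prior, 2 without miR-222 replicate 2 and 1 without any other array. The higher marker was kept without miR-222 replicate 1 and lost without any other array or with equal medians. Of 12 fibroblast markers 5 were lower (41.7%) and 7 did not pass (3 lower when control replicate 3 or 4 or miR-222 replicate 1 was omitted), with sums of 13417 to 14706 against 10725 to 12158. Smooth muscle markers had 3 of 8 lower (37.5%), with sums of 28010 to 28257 against 22863 to 25815. Des and Acta2, named after their values were seen, were the brightest of them, at 13.30 and 13.26 log2 units in the controls. Neither passed, and whether their signal came from smooth muscle cells was not tested. Endothelial markers had 2 of 9 lower (22.2%), with sums of 2973 to 3182 against 2233 to 2364. The 2 endothelial markers, named after their values were seen, were the receptor genes Kdr at -1.51 (limma adjusted p = 5.27e-05) and Eng at -0.27 (limma adjusted p = 0.0065). The other 7 endothelial markers did not pass and lay between -0.13 for Cdh5 and 0.04 for Pecam1, both named after their values were seen. Macrophage markers overlapped between groups, with sums of 1449 to 1540 in the controls and 1450 to 1660 with miR-222. Of the 12, 1 was higher (8.33%), a call kept without control replicate 3 or 4 and lost without any other array. The call was also absent after quantile normalization, with equal medians, without dim probe sets and with the trend and robust prior. No marker was at or below an intensity of 1 in any array. That limit lies far below the array medians of 202 to 219 and does not show that a marker was detected. The called macrophage marker, C1qa, named after its values were seen, averaged 6.75 log2 units in the controls, below the array medians of 7.66 to 7.77. Igf2, Igf1r and Irs1 thus fell, and Igfbp5 rose, in arrays in which cardiomyocyte, fibroblast, smooth muscle and endothelial sums were all lower, and the part of these cells in the changes was not tested. Such sums weigh bright probe sets most, and markers of a list changed unequally. Changes ran from -0.61 to 0.15 for cardiomyocyte markers (median -0.06) and from -0.89 to 0.11 for fibroblast markers (median -0.21). They ran from -0.91 to 0.16 for smooth muscle markers (median -0.19) and from -1.51 to 0.04 for endothelial markers (median -0.10). In such bulk samples fewer cells of a type and less RNA per cell cannot be told apart.

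**Figure D5:**
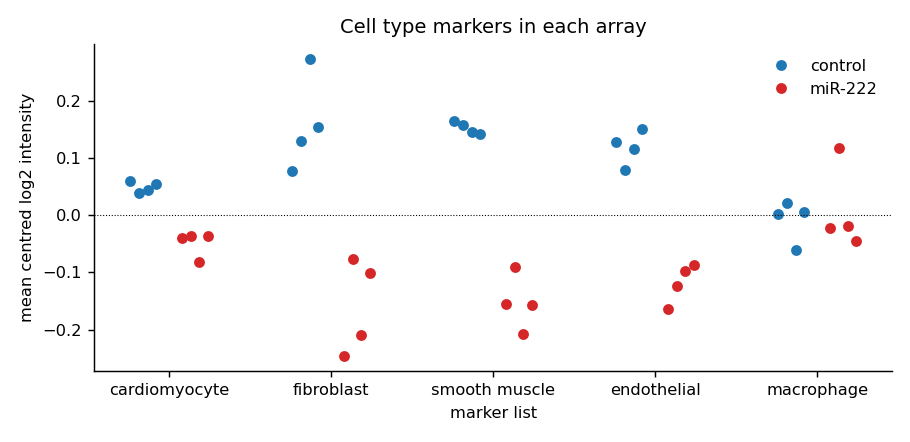
Mean log2 intensity of each marker list in each array, centred on the mean of each gene over the 8 arrays (y axis), for 5 lists of cell type markers (x axis) and 4 control and 4 miR-222 arrays (points). The groups do not overlap for cardiomyocyte, fibroblast, smooth muscle and endothelial markers, and overlap for macrophage markers.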

How the data were processed

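Total RNA of 8 samples of neonatal rat ventricular cardiomyocytes, 4 per group, was labelled with biotin and measured on Affymetrix rat arrays, per the labels. The authors deposited a table of 29170 probe sets with intensity values on a linear scale (0.8 to 16339), already normalized between arrays (method not given in the sources used here). Its identifiers pair with the annotation of the Rat Gene 1.0 ST array, whereas the series text names another rat array. In that annotation 15310 probe sets paired with 1 gene, 323 with several and 13537 with none. Array medians were 202 to 219, and arrays correlated at 0.989 to 0.993 within and 0.983 to 0.989 between groups. The number of arrays limits the precision.

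From these values log2 was taken without a pseudocount, and all probe sets were fitted in R 4.3.3 by lmFit and eBayes of limma 3.58.1, two-sided, with p-values adjusted over all probe sets. The fit was tested on simulated data. Replicates are numbered in the order of listing. The members, lists and tests were chosen with earlier results of these data known. Named genes were the measured members, up to 4 genes of each pathway list with the smallest p, and the 3 genes most correlated with the called member of largest change. Neighbours of members in the RefSeq order and the marker Tnnt2, given for its level, were also named. Others are marked as named after their values were seen. Alternatives were a pseudocount of 16, quantile normalization, equal array medians, the upper 60% of probe sets by level, an intensity trend with robust prior, array weights, the mean of a gene's probe sets, and leaving out each array. The same alternatives for the pathway lists were added after the data were seen. Sequences came from tables derived from RefSeq (GRCr8). Python 3.11.15 with matplotlib 3.10.9 drew the figures.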

Additional observations from a re-analysis of the deposited data

Results flagged for a closer look

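In 3 of 84 sets of 4 arrays (42 genes in each of 2 groups) a single array lay farther from the others than the 95% limit of Dixon's test, and chance alone flags about 1 set in 20. For Irs1 miR-222 replicate 2 stood at 8.56 log2 units, below the other miR-222 arrays at 8.60, a gap that was small beside the distance to the controls. For Igf2bp1 control replicate 1 stood at 9.48, above the other controls at 9.39 to 9.40. For Dok1 control replicate 4 stood at 7.84, below the other controls at 7.97 to 7.98.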

How the results depend on the processing

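The directions and calls of Igfbp5, Irs1, Igf2 and Igf1r were the same under all 7 other settings, with log2 fold changes of 0.76 to 0.81, -0.46 to -0.42, -0.25 to -0.22 and -0.23 to -0.18, and Igf1, Igfbp3 and Igfbp4 remained below the threshold. Igf2r passed under quantile normalization (0.23), without dim probe sets (0.21) and with the trend and robust prior (0.21), which raised the members called from 4 to 5. Insr turned sign with equal array medians (-0.0016), with the mean of its probe sets (-0.010) and without miR-222 replicate 2 (-0.0035), each time far from the threshold. Leaving out 1 array gave 2 to 4 members called, 2 of them without control replicate 4, and ranges of -0.26 to -0.19 for Igf2, -0.24 to -0.18 for Igf1r, 0.15 to 0.25 for Igf2r and -0.0035 to 0.042 for Insr. Both within-array differences stayed at their direction in all settings run (0.32 to 0.42 for Igf1 minus Igf2 and -0.25 to -0.19 for Igf1r minus Insr without single arrays). Genes called numbered 3580 in the main fit, 3053 to 4256 under other settings and 2686 to 3404 without single arrays. The 4256 came from the upper 60% of probe sets, a fit that left out some of the genes. In the pathway lists, with 16 genes higher and 8 lower, equal medians gave 10 and 10. Leaving out dim probe sets, and with them some genes of the lists, gave 23 and 13 (63.9% higher against 66.7%). Single arrays left out gave 12 to 16 higher and 5 to 9 lower. Over all called genes 47.3% were higher in the main fit and 39% with equal medians. The causes of these shifts were not tested. No paired analysis was possible because the labels give no replicate numbers or pairing. The small number of arrays and the missing detection calls limit what can be said of dim genes.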
